A study of Capra hircus with 20 samples.

Results

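Expression of 7 genes of the red blood cell lineage was examined in the hypothalamus of female Jining grey goats. The 7 genes were HBBC, ALAS2, AHSP, SLC4A1, KLF1, EPB42 and HEMGN, out of 21071 genes with values. They were taken by symbol, and HBBC and ALAS2 headed the set because their values in these same libraries were lower after D1. The values of HBBC and ALAS2 against D1 are therefore a description without a test. The other 5 genes were added as erythroid genes, to see whether they moved together with the juvenile globin.

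The goats belonged to 4 developmental stages, with 5 goats and 5 libraries at each. D1 goats were 1 day old, M2 goats 60 days, M4 goats 120 days and M6 goats 180 days. No treatment is described, feeding was the same for all, and all were slaughtered on the same day after electric shock. Each library was prepared from the hypothalamus of 1 goat after removal of rRNA and kept the strand of the RNA. No step that cleared blood from the tissue is described in the sources used here.

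Red blood cells form from erythroid precursors, which load themselves with hemoglobin, lose the nucleus and enter the blood as reticulocytes that still hold RNA for a short time. Hemoglobin pairs alpha-type with beta-type globin chains around heme, and the beta-type chain changes during development. In goats the juvenile beta chain, which HBBC encodes, is made around birth and is replaced as the animal grows. The brain makes no red blood cells, but its vessels contain blood.

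HBBC had the highest levels of the 7 genes at D1. Its FPKM (fragments scaled by gene length and library size) in the 5 D1 libraries was 1.40, 129, 25.9, 46.5 and 59.1, with a mean of 52.3 ± 48.0 (SD, n = 5). The values of replicates 1 to 5 are given in this order throughout. At M2 the level was 6.63, 6.11, 41.3, 1.00 and 2.90 FPKM. The juvenile globin was thus above 25 FPKM in 4 of 5 D1 libraries and in 1 of 5 M2 libraries. At M4 its level was 0.276, 0.994, 0, 0.527 and 0.170 FPKM, the highest just below the lowest M2 library (1.00 FPKM). At M6 its level was 1.35, 0.0674, 8.37, 4.58 and 1.08 FPKM.

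The stages overlapped for HBBC. Of the 15 later libraries, 6 reached the lowest D1 library, D1-1, and 3 of 5 D1 libraries were above all 15. On the log2(FPKM + 0.1) scale the fold change was -2.25 (SE 1.14, 95% interval -4.63 to 0.13) in M2 vs. D1, -6.18 in M4 vs. D1 and -4.04 in M6 vs. D1. Leaving out D1-1 gave -3.29 in M2 vs. D1, and leaving out M2-3 gave -2.97. In bulk tissue such a difference can come from fewer cells of a type or from less RNA per cell, and the 2 cannot be told apart.

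ALAS2 separated D1 from the later stages completely. This gene encodes the erythroid enzyme of the first, rate-limiting step of heme synthesis. Its FPKM was 0.940, 2.75, 1.40, 0.548 and 0.381 at D1, and 0, 0.183, 0.242, 0 and 0.165 at M2. At M4 it was 0.0645 in M4-1 and listed at 0 in the other 4 libraries. At M6 it was 0.0203 in M6-2, 0.0393 in M6-4 and listed at 0 in the others. The lowest D1 library, at 0.381 FPKM, was above the highest later library, at 0.242 FPKM. Of the 16771 genes tested, 21 (0.125%) had all 5 D1 libraries above all 15 later ones. ALAS2 was picked for this fall, so nothing is read from its place among them.

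The fold change of ALAS2 was -2.48 in M2 vs. D1 and -3.27 in both M4 vs. D1 and M6 vs. D1, each with an SE of 0.48. Most later values were at or near 0, and these sizes depended on the pseudocount. With 1 FPKM added in place of 0.1, the same 3 fold changes were -0.89, -1.03 and -1.03. HBBC and ALAS2 were ordered differently among the D1 goats. D1-2 had the highest level of both genes, but D1-5 was second for HBBC and last for ALAS2, and D1-1 was last for HBBC and in the middle for ALAS2.

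**Figure D1:**
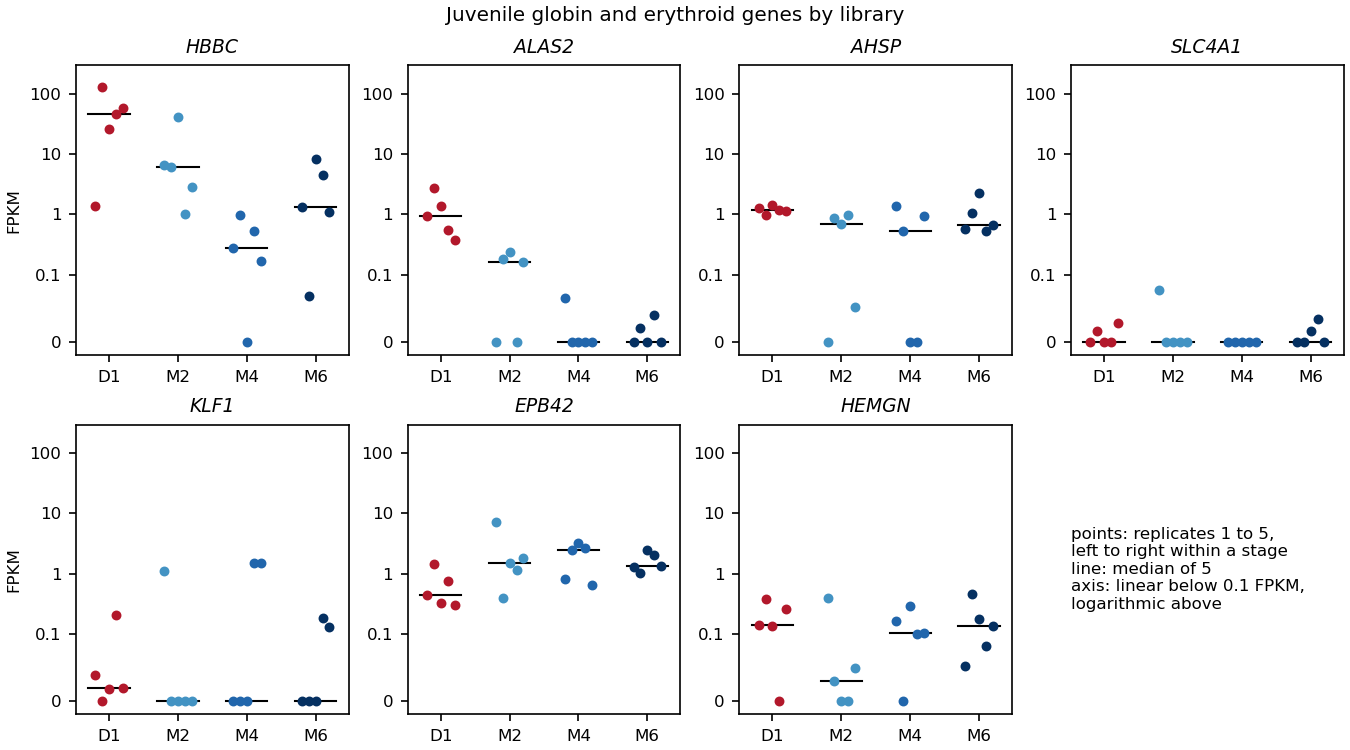
FPKM of the 7 genes in each library (points, replicates 1 to 5 from left to right within a stage), with the median of 5 as a line, on an axis that is linear below 0.1 FPKM and logarithmic above. Every D1 point of ALAS2 lies above 0.38 and every later point below 0.25 FPKM, while HBBC overlaps between D1 and M2, and EPB42 and KLF1 show no such fall.

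HBBC lies on chromosome 15 of the ARS1.2 assembly, at 34118282 to 34119849, and ALAS2 on chromosome X, at 25494562 to 25521331. AHSP is on chromosome 25 at 27413903 to 27419786, SLC4A1 on chromosome 19 at 43701327 to 43713639 and KLF1 on chromosome 7 at 98042976 to 98047057. EPB42 is on chromosome 10 at 64606361 to 64625455 and HEMGN on chromosome 8 at 62760447 to 62771191. These are whole gene spans from the annotation, and the 7 genes share no chromosome.

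The annotated loci around the globin gene were also read, as a description, because they were chosen by position after the values were seen. Within 100000 bp of HBBC lay 12 other protein-coding loci, of which 10 were listed at 0 in all 20 libraries. The names of the other two, LOC102175876 and LOC102176710, do not say what they encode, and whether they are globin genes was not determined. LOC102176710 (chromosome 15, 34026334 to 34027911) had 10.2, 5.81, 58.0, 0.0535 and 0.573 FPKM at D1 and was listed at 0 in all 15 later libraries. LOC102175876 (chromosome 15, 34071717 to 34073359) had 27.4, 15.4, 73.0, 0.893 and 0.950 FPKM at D1. Its later level ranged from 0 to 7.72 FPKM apart from 31.2 in M2-3.

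These loci did not rank the D1 goats as HBBC did. D1-1, the lowest D1 library for HBBC, was the second highest for both loci, and D1-4 and D1-5, with 46.5 and 59.1 FPKM of HBBC, were the lowest for both. The study kept only uniquely mapped reads. Whether reads of HBBC and of these loci can be told apart was not tested.

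HBM, the other gene with a hemoglobin symbol, is on chromosome 25 at 160114 to 160889 and was listed at 0 in all 20 libraries. Of the 6 loci within 20000 bp of it, 5 were above 0 in some library. LOC102168680, at a distance of 1404 bp, had 12.1, 28.7, 24.3, 3.44 and 6.04 FPKM at D1, and its later level reached 17.6 FPKM in M2-3 and at most 3.70 FPKM elsewhere. LOC102168959, at 4901 bp, had 2.11, 25.9, 12.4, 2.17 and 11.0 FPKM at D1 and at most 5.66 FPKM later. What either locus encodes was not determined.

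**Figure D2:**
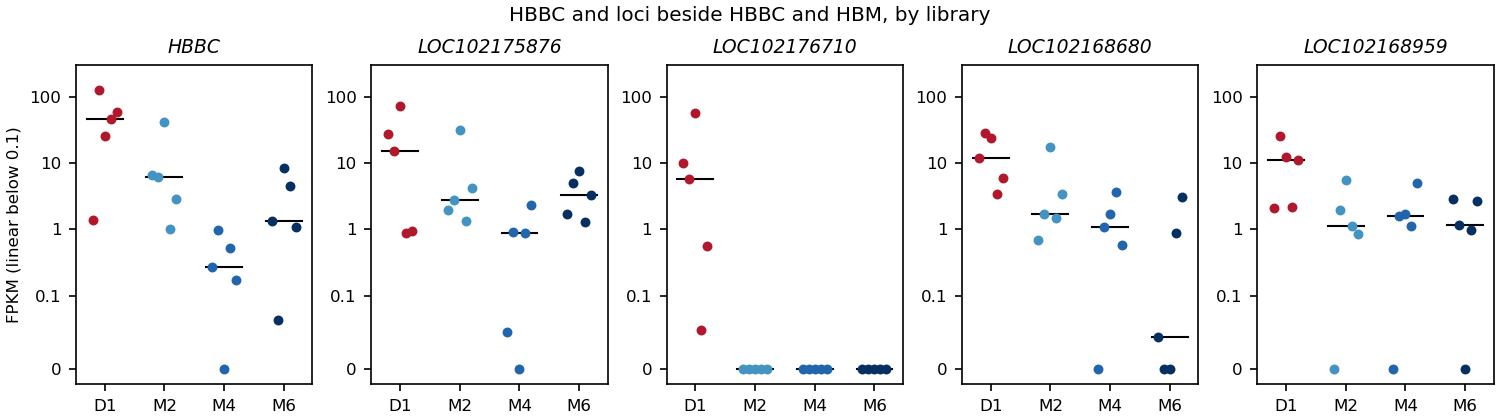
FPKM of HBBC and of 4 loci near HBBC or HBM in each library (points, replicates 1 to 5 from left to right), with the median of each stage as a line, on an axis that is linear below 0.1 FPKM and logarithmic above. LOC102176710 is above 0 at D1 only among these 20 libraries, and M2-3 is the highest later library for HBBC, LOC102175876, LOC102168680 and LOC102168959.

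M2-3 stood apart in other respects. It had the highest later HBBC level and the highest GATA1 level of all 20 libraries, at 2.05 FPKM, where GATA1 is a master regulator of erythroid genes. In M2-3, KLHDC1 alone made up 23.9% of the summed FPKM, and it was the leading gene in M6-3 too, at 9.83%, against at most 4.73% in any other library. The part of these libraries in the HBBC values was not tested beyond leaving them out. Without M2-3 and M6-3 the fold change of HBBC was -2.97 in M2 vs. D1 and -4.64 in M6 vs. D1.

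The remaining members were tested against D1 with limma on log2(FPKM + 0.1), with Benjamini-Hochberg adjustment across the 16771 genes tested. Calls needed an adjusted p below 0.05 together with a log2 fold change of 1 or more in either direction. AHSP, KLF1, EPB42 and HEMGN were tested, since they reached 0.1 FPKM in 5 or more libraries, and SLC4A1 did not. In M2 vs. D1, 0 of these 4 members were called, where 0 of 16771 genes (0%) were called in all. In M4 vs. D1 the count was 0 of 4, against 9 genes (0.0537%) of all tested, and in M6 vs. D1 it was 0 of 4, against 1 gene (0.00596%). At an unadjusted p under 0.05, 2 of 4 members passed in M2 vs. D1, 2 of 4 in M4 vs. D1 and 1 of 4 in M6 vs. D1. The share of all genes at that level was 15.6%, 8.71% and 7.41%.

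AHSP encodes the chaperone that binds free alpha globin until it joins a beta chain. It was even at D1, where the 5 libraries lay between 0.971 and 1.42 FPKM with an SD of 0.166 (n = 5). At M2 it had 0, 0.877, 0.686, 0.989 and 0.0516 FPKM, and at M4 1.40, 0.524, 0, 0 and 0.951 FPKM. Some later libraries were thus near the D1 level and others at or close to 0. At M6 it had 0.575, 1.07, 2.30, 0.534 and 0.677 FPKM, and its highest library of all 20 was M6-3.

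For AHSP, M2 vs. D1 gave a log2 fold change of -1.63 (95% interval -3.24 to -0.02, limma adjusted p = 0.312). The fold change was -1.70 in M4 vs. D1 (adjusted p = 0.550), and M6 vs. D1 gave -0.39 (adjusted p = 0.911). Of the 15 later libraries, 4 reached the lowest D1 value. Of all 16771 genes tested, only 21 (0.125%) had all 5 D1 libraries above all 15 later ones, so this overlap of AHSP says little.

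EPB42 encodes protein 4.2, which ties band 3 to the membrane skeleton of the red cell. It had 0.435, 1.44, 0.331, 0.760 and 0.307 FPKM at D1 and 7.19, 0.394, 1.51, 1.14 and 1.85 FPKM at M2. At M4 it had 0.819, 2.45, 3.26, 2.66 and 0.660 FPKM, and the 5 M6 libraries lay between 1.04 and 2.43 FPKM.

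For EPB42, M2 vs. D1 gave a log2 fold change of 1.36 (95% interval 0.14 to 2.58, limma adjusted p = 0.274). It was 0.84 without M2-1, and -0.082 with the replicate number as a block and the mapping rate as covariates. M4 vs. D1 gave 1.41 (adjusted p = 0.513), and M6 vs. D1 gave 1.33 (adjusted p = 0.638). None of these passed, and all 15 later libraries were above the lowest D1 library. These 3 comparisons share the D1 libraries and do not count as separate support.

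SLC4A1, KLF1 and HEMGN were low in nearly every library. SLC4A1 encodes band 3, the main anion exchanger of the red cell membrane. It was above 0 in 5 of 20 libraries, with 0.0152 FPKM in D1-2, 0.0274 in D1-5, 0.0777 in M2-1, 0.0164 in M6-3 and 0.0335 in M6-4. It was listed at 0 in all 5 M4 libraries, and no limma test was made.

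KLF1 encodes the erythroid transcription factor that activates adult beta globin. It had 0.0390, 0, 0.0179, 0.203 and 0.0190 FPKM at D1. At the later stages it was above 0 in 5 libraries only, with 1.09 FPKM in M2-1, 1.51 in M4-4, 1.48 in M4-5, 0.184 in M6-4 and 0.129 in M6-5. Its 3 highest values were therefore all at later stages, in libraries where ALAS2 was listed at 0. The fold change in M4 vs. D1 was 1.09 (95% interval -0.71 to 2.88, limma adjusted p = 0.783), and it was 0.20 for M2 and 0.03 for M6 against D1.

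HEMGN encodes hemogen, a nuclear protein of blood cell precursors. It had 0.139, 0.381, 0.137, 0 and 0.261 FPKM at D1 and 0.388, 0.0298, 0, 0 and 0.0489 FPKM at M2. At M4 and M6 its level was between 0 and 0.454 FPKM. The fold change was -0.68 in M2 vs. D1 (95% interval -1.80 to 0.45, limma adjusted p = 0.564), -0.24 in M4 vs. D1 and -0.0015 in M6 vs. D1.

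**Figure D3:**
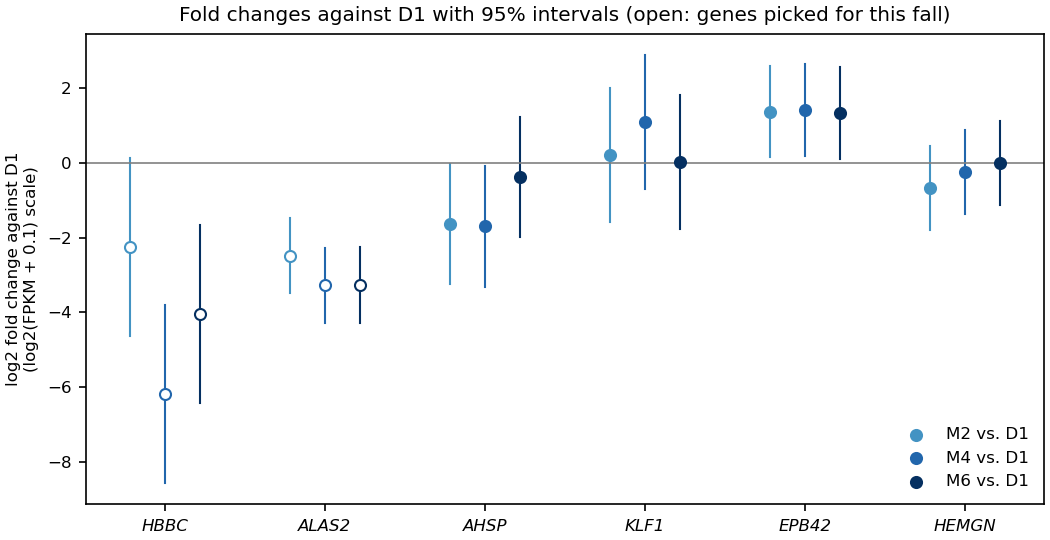
Log2 fold change against D1 on the log2(FPKM + 0.1) scale for the 6 members that passed the filter, with 95% intervals from limma as vertical lines (5 goats a stage). HBBC and ALAS2, drawn as open circles because they were picked for this fall, have values below 0, and the interval of HBBC in M2 vs. D1 (-4.63 to 0.13) includes 0. EPB42 has values of 1.33 to 1.41, and 0 lies within all intervals of KLF1 and HEMGN and that of AHSP in M6 vs. D1.

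HBBC and ALAS2 were picked for low values after D1, so their later values entered that choice. The comparisons of HBBC among M2, M4 and M6 are therefore not independent of it. ALAS2 reached 0.1 FPKM in only 3 of the 15 later libraries and passed the filter through D1, so its values within the later stages are given above without a limma test. AHSP, KLF1, EPB42 and HEMGN were compared in M4 vs. M2, M6 vs. M4 and M6 vs. M2. Of these 4 members, 0 were called by limma, where 0 of 16771 genes (0%) were called in each. At an unadjusted p under 0.05, 0 of 4 members passed in each, against 8.68%, 6.87% and 6.14% of all genes.

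HBBC had a fold change of -3.93 in M4 vs. M2 (SE 1.14, limma adjusted p = 0.472). The choice of HBBC favoured low later values, so nothing is read from this comparison. The highest M4 library, at 0.994 FPKM, was just below the lowest M2 library, at 1.00 FPKM. How many of all genes separated these stages was not counted. In M6 vs. M4 the fold change of HBBC was 2.13 (95% interval -0.24 to 4.51, adjusted p = 0.763), and in M6 vs. M2 it was -1.79 (95% interval -4.17 to 0.59, adjusted p = 0.750). By mean level the order of HBBC was D1, M2, M6 and M4, and no neighbours among the last 3 stages differed past the threshold.

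Whether the erythroid genes followed the juvenile globin from goat to goat was examined first in the 15 later libraries, with log2(FPKM + 0.1) and permutation tests. Of 6 pairs with HBBC, 1 had an unadjusted permutation p under 0.05 by Pearson's r and 1 by Spearman's rho, and none passed after Benjamini-Hochberg adjustment over the 6 pairs.

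HBBC with ALAS2 gave r = 0.54 (permutation p = 0.0369, adjusted 0.222) and rho = 0.33 (permutation p = 0.229, adjusted 0.470). Without the 2 libraries farthest from the median of HBBC, M2-3 and M4-3, r was 0.27. It was 0.31 without M2-3 alone and 0.52 without M4-3 alone, so the relation rested mostly on M2-3. ALAS2 was above 0 in only 6 of these 15 libraries and reached 0.1 FPKM in 3, so this value says little. HBBC with SLC4A1 gave r = 0.39 (permutation p = 0.155, adjusted 0.309) and rho = 0.53 (permutation p = 0.0430, adjusted 0.258), and r was 0.56 without both M2-3 and M4-3. SLC4A1 was above 0 in only 3 of these 15 libraries.

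For the other members no relation with HBBC was found at this number of goats. AHSP gave r = 0.12 (permutation p = 0.674) and rho = 0.02 (permutation p = 0.953), and r was -0.18 without those 2 libraries. EPB42 gave r = 0.14 (permutation p = 0.622) and rho = 0.15 (permutation p = 0.584), and r was 0.39 without them. KLF1 gave r = -0.10 (permutation p = 0.726) and rho = -0.06 (permutation p = 0.833), and r was -0.11 without them. HEMGN gave r = -0.42 (permutation p = 0.114) and rho = -0.33 (permutation p = 0.235), and r was -0.16 without them. Adjusted over the 6 pairs, these permutation p-values were 0.309 to 0.726 for r and 0.470 to 0.953 for rho.

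All 20 libraries were then centred on their stage means, which removes the difference between D1 and later stages that the choice of genes had used. Of the 21 pairs among the 7 members, 13 had r above 0 and the median r was 0.08. By Pearson's r, 2 pairs had an unadjusted permutation p under 0.05 and 0 passed after adjustment over the 21 pairs. By Spearman's rho the counts were 3 and 0. HBBC with ALAS2 gave r = 0.24 (permutation p = 0.417, adjusted 0.611) and rho = 0.12 (permutation p = 0.651).

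The lowest r was that of AHSP with EPB42, at -0.67 (permutation p = 0.01002, adjusted 0.210) with rho = -0.63 (permutation p = 0.0138, adjusted 0.290). One library decided this call, since r without M6-3 was -0.76 with an adjusted permutation p of 0.0199. The highest r was that of SLC4A1 with EPB42, at 0.58 (permutation p = 0.0430, adjusted 0.369), where M2-1 held the highest value of both genes. SLC4A1 was above 0 in only 5 of the 20 libraries and at most 0.0777 FPKM, so this r says little.

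**Figure D4:**
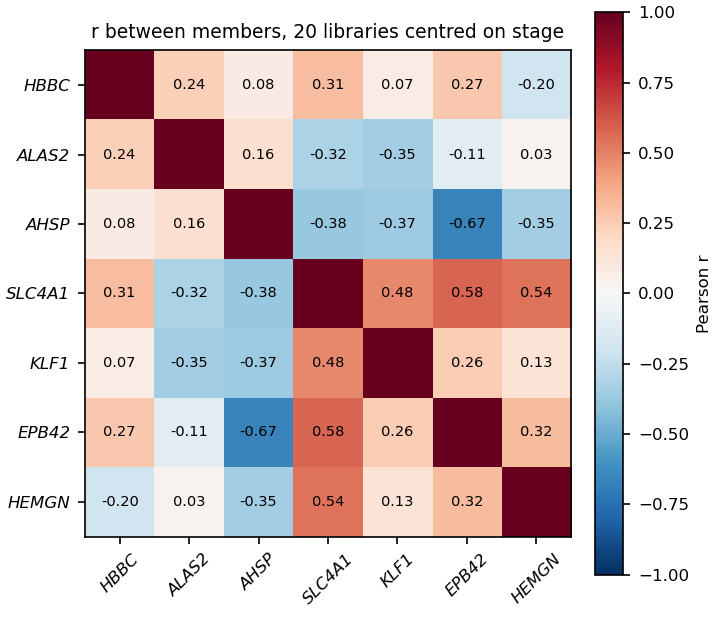
Pearson r between the 7 members over 20 libraries, from log2(FPKM + 0.1) centred on the mean of each stage, with red for positive and blue for negative values. HBBC has r between -0.20 and 0.31 with the other 6 members, and the most negative square is AHSP with EPB42 at -0.67.

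The genes most like HBBC and ALAS2 were ranked over the same 20 stage-centred libraries, as a description without a test. Among the genes most like HBBC were MSH5 (r = 0.73), LOC102181920 (0.73), SERPINC1 (0.71) and DZIP1L (0.71), and none of them is a member. Among 16770 genes ranked by likeness to HBBC, EPB42 came at 1881, ALAS2 at 2303, AHSP at 5255, KLF1 at 5405 and HEMGN at 12335. The 5 genes most like ALAS2 were DMRTA2 (r = 0.69), FRAT1 (0.66), PRUNE2 (0.65), JUN (0.65) and FBXO31 (0.64). The libraries share depth and composition within a goat, which these values include.

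Wider lists of erythroid genes showed no called gene in any of the 6 comparisons. At most 9 of all 16771 genes (0.0537%) were called in any comparison, so the absence of calls in these lists says little. At an unadjusted p under 0.05 in M2 vs. D1, limma gave 2 of 16 membrane genes, 2 of 15 heme genes, 2 of 11 iron genes, 2 of 13 regulators and 3 of 15 reticulocyte genes, against 15.6% of all genes. In M4 vs. D1 the counts in the same order were 1, 1, 1, 0 and 1, against 8.71%, and in M6 vs. D1 they were 1, 2, 2, 2 and 2, against 7.41%. Red cell membrane and skeleton genes had values for 20 of 23 symbols, of which 16 were tested. The median log2 fold change of these genes against D1 was -0.10 for M2, 0.19 for M4 and -0.24 for M6, where the median of all genes tested was -0.07, -0.07 and -0.05. TMOD1, which caps actin filaments, and ADD1, an adducin of the membrane skeleton, had the highest mean FPKM of this list, at 25.3 and 17.4. ADD1 had 14.1 ± 2.21 FPKM at D1 and 20.1 ± 2.36 FPKM at M2 (SD, n = 5 each), a fold change of 0.51 (limma adjusted p = 0.229).

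Of the heme synthesis genes other than ALAS2, 15 of 16 symbols had values and all 15 were tested. Their median fold change was -0.19, -0.21 and -0.11 in the comparisons of M2, M4 and M6 with D1. ALAS1, which catalyses the same step as ALAS2 in tissues other than red cells, had 19.0 ± 2.79 FPKM at D1 and 13.3 ± 3.06 FPKM at M2 (SD, n = 5 each), with a fold change of -0.52 (limma adjusted p = 0.231). FAM210B, a mitochondrial protein of erythroid heme synthesis, had 20.3 ± 5.44 FPKM at D1 and 17.1 ± 3.55 FPKM at M2 (SD, n = 5 each; limma adjusted p = 0.752). Over all 20 libraries, ALAS1 was at least 9.57 FPKM and FAM210B at least 7.83 FPKM.

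The iron list had values for 13 of 15 symbols, with 11 tested and medians of -0.28, -0.20 and 0.06 against D1. FTH1 and FTL, the ferritin chains that store iron, had mean levels of 518 and 97.6 FPKM over all libraries, and neither was called (fold changes of -0.28 and -0.21 in M2 vs. D1, limma adjusted p = 0.644 and 0.683). Erythroid regulators had values for 15 of 16 symbols, with 13 tested and medians of 0.04, -0.03 and 0.11. NFE2L2, the oxidative stress factor, and JAK2, the kinase of the erythropoietin receptor, were the highest of them, at mean levels of 42.1 and 17.4 FPKM. Late erythroid and reticulocyte genes had values for 17 of 20 symbols, with 15 tested and medians of -0.20, -0.16 and -0.12. PRDX2, a peroxidase abundant in red cells and also in neurons, had 242 ± 100.4 FPKM at D1 and 158 ± 32.7 FPKM at M6 (SD, n = 5 each), with a fold change of -0.56 (limma adjusted p = 0.741). BNIP3L, which clears mitochondria from reticulocytes, had 71.2 ± 5.86 FPKM at D1 and 64.2 ± 5.28 FPKM at M6 (SD, n = 5 each; limma adjusted p = 0.882).

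Genes with a defining role in erythroid precursors differed in level. TSPO2 and GFI1B were listed at 0 in all 20 libraries, RHAG was at most 0.0407 FPKM, TRIM58 at most 0.0263 FPKM, KEL at most 0.0938 FPKM and TRIM10 at most 0.204 FPKM. NFE2 was above 0 in 16 libraries, at up to 0.405 FPKM. GATA1 was above 0 in 5 libraries, with 2.05 FPKM in M2-3 and 0.475 FPKM in M2-1. EPOR, the erythropoietin receptor, was above 0 in all 20 libraries, at up to 3.94 FPKM. None of the genes with values in the 5 wider lists had all D1 libraries above all later ones. Of all 16771 genes tested, only 21 (0.125%) did, so their absence from these lists says little.

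**Figure D5:**
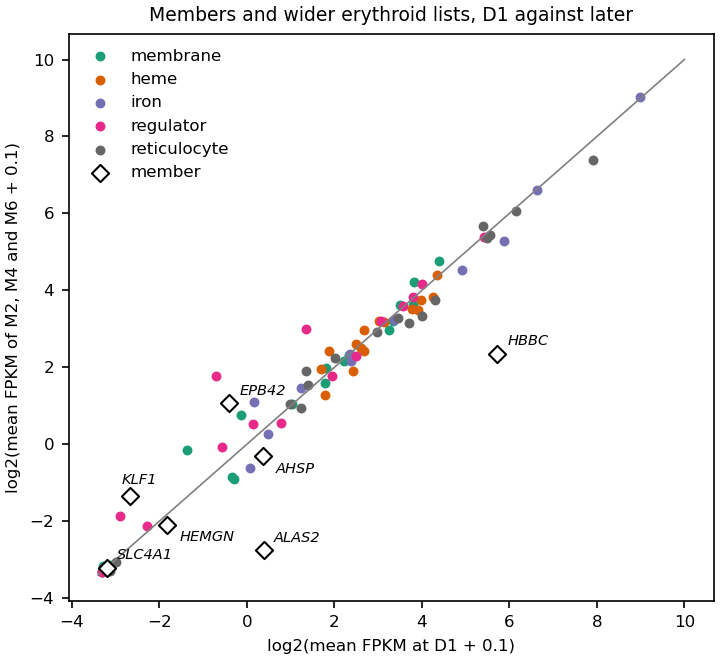
Mean level at D1 (horizontal axis) against the mean of M2, M4 and M6 (vertical axis), both as log2(mean FPKM + 0.1), for the 7 members (diamonds) and the 5 wider lists (coloured points), with the line of equal levels. HBBC and ALAS2 lie farthest below the line, while the list genes and the other members lie closer to it or above it.

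Markers of other cells of the blood were compared in the same libraries. Granulocyte markers had values for 8 of 12 symbols, and their summed level ranged from 1.62 to 8.08 FPKM in D1 libraries, 1.03 to 4.12 in M2, 0.239 to 15.1 in M4 and 0.614 to 3.55 in M6. S100A8, a calcium-binding protein of neutrophils, was the only gene of all lists other than the members with all 5 D1 libraries above all 15 later ones. Of all 16771 genes tested, 21 (0.125%) had this separation. For S100A8 the lowest D1 library was at 1.03 FPKM and the highest later library at 0.930 FPKM. Its fold change was -3.24 in M4 vs. D1 (limma adjusted p = 0.0546) and -2.13 in M2 vs. D1 (adjusted p = 0.151), and it was chosen for mention after its values were seen. The granulocyte markers did not share a direction. Of the 6 tested, 2 had a fold change above 0 in M2 vs. D1, 1 in M4 vs. D1 and 3 in M6 vs. D1, and the others were below 0. Lymphocyte markers summed to 2.60 to 7.99 FPKM at D1 and 2.67 to 10.7 FPKM later, and platelet markers to 5.29 to 11.8 FPKM at D1 and 5.11 to 18.6 FPKM later. Endothelium markers, all 12 of which had values, summed to 70.8 to 126 FPKM at D1 and 60.6 to 168 FPKM later. None of these markers was called, where at most 9 of 16771 genes (0.0537%) were called in any comparison. The part of blood content in the levels of the members was not tested.

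The labelled tissue was checked against 16 hypothalamic genes, all of which had values. Their summed level ranged from 5.14 to 944 FPKM between libraries, and its median was 21.5 FPKM for D1, 48.7 FPKM for M2, 24.0 FPKM for M4 and 122 FPKM for M6. OXT, which encodes oxytocin, was listed at 0 in 6 of 20 libraries and reached 413 FPKM in M6-4. The libraries therefore differed widely in the neuropeptide genes of the hypothalamus, and the part of this in the members' values was not tested. The summed FPKM of a library was between 260199 and 377479.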

How the data were processed

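The authors trimmed reads with fastp 0.23.1, aligned them with HISAT2 2.0.5 to the goat genome ARS1.2, assembled transcripts with StringTie 1.3.3b and deposited FPKM values per gene for 20 libraries. Versions are those of the submitters' notes and the methods. Low values were not whole multiples of a common step more often than chance (20.9% against 20%, tolerance 0.1), so the reads behind a value are unknown, and no counting interval is given.

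Members were matched by symbol to the RefSeq annotation. Members and gene lists were chosen with earlier results of these data known. Values were fitted as log2(FPKM + 0.1) with limma 3.58.1 (R 4.3.3), 4 stages in 1 fit and a variance trend, for the 16771 genes that reached 0.1 FPKM in 5 or more libraries. The study's count test could not be run on FPKM. The fit was checked on simulated data. Correlations used 100000 two-sided permutations (scipy 1.17.1), within stage for centred values. Named genes were the 7 members, the annotated hemoglobin genes, list genes that were called or otherwise the 2 with the highest mean, and the 5 genes most like HBBC and ALAS2. Not every gene under this rule is reported here. Genes with a defining role in erythroid precursors, GATA1, KLHDC1 and S100A8 were added after their values were seen. Figures used matplotlib 3.10.9.

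Alternatives were other pseudocounts, filters, scalings and weights, the 10 libraries compared alone, no variance trend, adjusted p alone, a block for the replicate number, the mapping rate as a covariate, both together, and leaving out libraries.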

Additional observations from a re-analysis of the deposited data

Results flagged for a closer look

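Of 27 groups of 5 libraries of one gene and stage, 7 had a library whose distance from the nearest of the others exceeded Dixon's 95% critical value for 5 samples (0.710), where chance gives about 1 in 20 groups of normally distributed values. In 3 of the 7 the other 4 libraries were all listed at 0, which fixes the ratio at 1, and FPKM near 0 are skewed, so the number of such groups is a description. All 7 were the highest library of their group. HBBC was 41.3 FPKM in M2-3, where the next M2 library had 6.63 FPKM. In M2-1, EPB42 was 7.19 FPKM against 1.85 FPKM in the next library, KLF1 was 1.09 FPKM and SLC4A1 0.0777 FPKM with the other 4 M2 libraries listed at 0, and HEMGN was 0.388 FPKM against 0.0489 FPKM. M2-1 therefore gave 4 of the 7, for genes of the membrane and nucleus of erythroid cells, while HBBC was 6.63 FPKM in M2-1 and ALAS2 and AHSP were listed at 0. KLF1 was 0.203 FPKM in D1-4, against 0.0390 FPKM in the next D1 library, and ALAS2 was 0.0645 FPKM in M4-1 with the other M4 libraries at 0. The FPKM of the low genes may come from few reads, which cannot be seen in these values.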

How the results depend on the processing

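The number of members called, other than HBBC and ALAS2, was 0 in all 6 comparisons under every alternative run. The number of adjusted pairs with HBBC in the later libraries was 0 too. The count of adjusted pairs among centred members was 0 to 1 when single libraries were left out, with 1 without M6-3. The fold changes of HBBC against D1 were negative under every alternative run, at -3.29 to -1.66 in M2 vs. D1, -7.22 to -5.61 in M4 vs. D1 and -5.08 to -3.22 in M6 vs. D1 when single libraries were left out. Those of ALAS2 were negative too. With a pseudocount of 1 they were -0.89, -1.03 and -1.03, and with 0.01 they were -3.97, -6.00 and -5.80. None of the fold changes that turned direction, listed here, had passed the test. Those of ALAS2 among the later stages are given without a test. With a pseudocount of 1, AHSP in M4 vs. M2 was 0.021, EPB42 in M4 vs. M2 -0.021 and ALAS2 in M6 vs. M4 -0.0011. With 0.01, KLF1 was -0.59 in M2 vs. D1, -0.33 for M6 vs. D1 and 0.26 for M6 vs. M2, and HEMGN 0.32 in M6 vs. D1. Quantile normalization gave 0.22 for AHSP in M4 vs. M2, -0.041 for ALAS2 in M6 vs. M4, -0.017 for HEMGN in M6 vs. M4 and 0.081 for EPB42 in M6 vs. M2. Median-ratio scaling gave 0.016 for HEMGN in M6 vs. D1 and -0.0067 for ALAS2 in M6 vs. M4. Quality weights gave -0.13 and 0.18 for KLF1 in M2 vs. D1 and M6 vs. M2, 0.013 for AHSP in M4 vs. M2 and 0.0045 for EPB42 in M6 vs. M2. The mapping rate as a covariate gave -0.079 for KLF1 in M6 vs. D1 and 0.28 for EPB42 in M6 vs. M2, and removing it from both genes gave r = -0.074 for HBBC with EPB42 in the later libraries. Leaving out M2-3 and M6-3 together, chosen after seeing the data, gave 0.15 for AHSP in M4 vs. M2, and for HBBC r = -0.094 with AHSP and 0.073 with KLF1 in the later libraries and -0.11 with AHSP after centring. The cause of these changes was not tested.

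The replicate numbers did not pair the libraries, since 7 of 30 same-numbered correlations of the deviations from the stage means were above 0.1, against 37 of 120 for other numbers. The replicate block alone left the fold change of HBBC in M2 vs. D1 at -2.25 and changed no call of a member. With the block and the mapping rate together, ALAS2 in M2 vs. D1 was -1.50, EPB42 -0.082 in M2 vs. D1 and 0.41 in M6 vs. M2, KLF1 -1.61, -0.18 and -1.23 against D1 and 0.38 in M6 vs. M2, and AHSP 0.44 in M6 vs. D1.

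Leaving out single libraries turned the direction of other small values. The ranges for KLF1 were -0.51 to 0.47 in M2 vs. D1, -0.21 to 0.30 for M6 vs. D1 and -0.42 to 0.54 for M6 vs. M2. Those for HEMGN were -0.58 to 0.025 in M4 vs. D1, -0.33 to 0.23 in M6 vs. D1 and -0.044 to 0.46 in M6 vs. M4. EPB42 ranged from -0.40 to 0.57 in M4 vs. M2, -0.38 to 0.15 in M6 vs. M4 and -0.48 to 0.49 in M6 vs. M2. AHSP in M4 vs. M2 ranged from -0.59 to 0.42 and ALAS2 in M6 vs. M4 from -0.077 to 0.15. For HBBC in the later libraries, r ranged from -0.11 to 0.26 with AHSP, -0.25 to 0.068 with KLF1 and -0.018 to 0.32 with EPB42, and after centring from -0.033 to 0.20 with AHSP and -0.0074 to 0.15 with KLF1.

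Over all genes, 0 genes were called in M2 vs. D1, but 148 with library quality weights, and 9 against 65 in M4 vs. D1 and 1 against 95 in M6 vs. D1. Without D1-4 the counts were 10, 32 and 20. Most members were near 0 FPKM, where the depth behind a value is unknown, so that a gene listed at 0 is not shown to be absent.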
